A study of Mus musculus with 12 samples.

Results

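Disease-associated microglia genes are a set of genes reported to be high in microglia around amyloid plaques and in other brain pathology. Of these, 10 were followed here: *Itgax*, *Clec7a*, *Cst7*, *Lpl*, *Spp1*, *Gpnmb*, *Cd9*, *Axl*, *Lgals3* and *Fabp5*. They were found by the gene symbol of their Ensembl identifier among the 48623 genes of the table, each had 1 identifier, and all 10 were among the 11204 genes abundant enough to test. The RNA came from primary microglia grown from the brains of newborn mice, 1 to 3 days old, on the C57BL/6J background. Cultures were wild type (WT: T13, T33 and T43) or carried the R47H knock-in allele of *Trem2*, homozygous as the study states (KI: T15, T22 and T32). Of the libraries of each culture, 1 was untreated and the other had received IL-4 at 20 ng/ml for 48 h, so the 12 libraries formed 4 groups of 3. The study describes the WT mice as littermates of the KI mice, with pups of the KI line cultured separately. Its methods also describe WT preparations pooled from several pups of 1 litter, and the labels do not say whether WT and KI libraries differ in pooling. The knock-in line also has less *Trem2* RNA, so the amino acid change and the lower *Trem2* level cannot be told apart. Because the libraries are bulk RNA, fewer cells of a type and less RNA per cell cannot be told apart either.

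As background, TREM2 is a lipid-sensing receptor on microglia that signals through the adaptor TYROBP. In mouse models of amyloid deposition, microglia pass from a homeostatic state to an intermediate one and then to a state in which genes of phagocytosis, lipid handling and lysosomes are high. The last step is known to depend on TREM2. IL-4 is a cytokine of alternative activation that acts through the transcription factor STAT6, and TREM2 and IL-4 are the factors crossed in this study.

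Values are TPM, transcript abundances corrected for transcript length, so that levels can be compared between genes. They sum to 1000000 in each library and hold no read counts, so sequencing depth is unknown here. Between 20750 and 23945 genes were above 0 per library. *Trem2* was between 1190 and 1886 TPM in the 6 WT libraries and between 325 and 770 TPM in the 6 KI libraries, without overlap (log2 difference -1.43, SE, the standard error, 0.19, adjusted p = 0.00763, limma). Microglial markers were present in every library, with a sum of 10 markers between 7096 and 21520 TPM, and lower in KI. The sum of 8 astrocyte markers reached 4599 TPM in untreated and 3509 TPM in IL-4-treated KI T15, against 157 to 661 TPM in the other 10 libraries. T13 and T15 are also the cultures whose library names have another form. The results that rest on them are given with and without them.

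In untreated WT microglia the level of these genes ranged from near 0 for *Itgax* to 9958 TPM for *Spp1*. By group mean, the order was *Spp1* (8330 TPM), *Lpl* (2173 TPM), *Lgals3* (2081 TPM), *Cd9* (1722 TPM), *Gpnmb* (1173 TPM), *Fabp5* (604 TPM), *Clec7a* (346 TPM), *Cst7* (243 TPM), *Axl* (66.9 TPM) and *Itgax*. *Spp1* was above *Lpl* in every library, whereas the libraries of *Lpl*, *Lgals3* and *Cd9* overlapped, as did those of *Cd9* with *Gpnmb* and of *Gpnmb* with *Fabp5*. From *Fabp5* downwards, no neighbours in the order overlapped. All members but *Itgax* were thus well above 0 in culture before any stimulus.

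**Figure D1:**
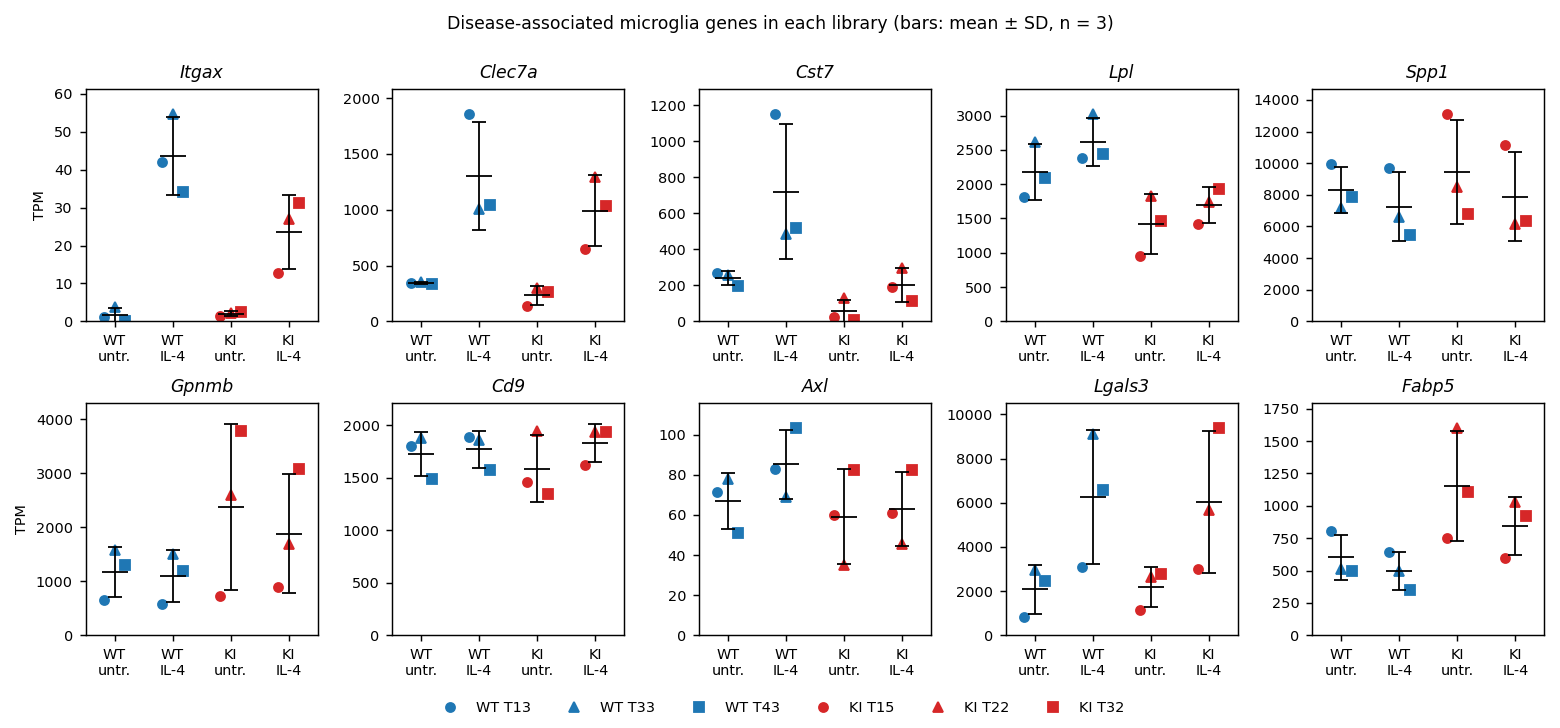
TPM (linear axes from 0, one scale per gene) of the 10 genes in each of the 12 libraries, by genotype and treatment; symbols mark cultures, and black bars the mean ± SD of 3 libraries, cut at 0. *Itgax*, *Clec7a* and *Lgals3* sit higher after IL-4 in both genotypes, and *Cst7* sits lower in all KI than in all WT libraries of the same treatment.

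The first comparison was untreated against IL-4-treated microglia. *Itgax* and *Clec7a* rose, 2 of 10 members, and none fell; across all tested genes 0.75% rose and 0.143% fell. *Cst7* and *Lgals3* were also higher after IL-4 in each of the 6 cultures, which made 4 of 10 members higher in all 6 cultures against 5.73% of all tested genes. With all 12 libraries, these last genes passed the threshold only when the libraries were compared within cultures. The median log2 difference was 0.26 over the 10 members and 0.04 over all tested genes.

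The DNA just upstream of the start sites of these genes is shown for the 4 members that were higher in every culture, because the motif bound by STAT6 could be looked for there. The sequences came from a set of windows at RefSeq start sites on GRCm38.p6. The set used here had an entry for 8 of the 10 members and none for *Lpl* and *Fabp5*. The sequences cover the 250 bases before the start, shortened for *Itgax* to 247 bases and for *Lgals3* to 203 bases to leave out annotated exons. Capitals mark matches, on either strand, to TTC and GAA with 4 bases of any kind between them (STAT6), GAGGAA (the core of the myeloid factor PU.1), CACGTG (the E-box of MITF and its relatives) and TGANTCA (AP-1). The windows are *Itgax* chr7:128129300-128129546 on the plus strand, *Clec7a* chr6:129472780-129473029 on the minus strand, *Lgals3* chr14:47373610-47373812 on the plus strand and *Cst7* chr2:150570165-150570414 on the plus strand, each printed 5′ to 3′ on the gene's strand.
Itgax: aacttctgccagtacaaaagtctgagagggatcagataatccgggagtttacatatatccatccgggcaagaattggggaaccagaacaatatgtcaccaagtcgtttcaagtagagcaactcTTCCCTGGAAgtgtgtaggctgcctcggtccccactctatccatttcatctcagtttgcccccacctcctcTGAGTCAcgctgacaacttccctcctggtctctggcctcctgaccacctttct
Clec7a: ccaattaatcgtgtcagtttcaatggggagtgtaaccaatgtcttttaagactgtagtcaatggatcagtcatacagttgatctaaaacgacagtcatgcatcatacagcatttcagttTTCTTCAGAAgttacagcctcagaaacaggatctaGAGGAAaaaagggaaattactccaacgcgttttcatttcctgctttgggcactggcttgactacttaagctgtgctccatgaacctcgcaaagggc
Lgals3: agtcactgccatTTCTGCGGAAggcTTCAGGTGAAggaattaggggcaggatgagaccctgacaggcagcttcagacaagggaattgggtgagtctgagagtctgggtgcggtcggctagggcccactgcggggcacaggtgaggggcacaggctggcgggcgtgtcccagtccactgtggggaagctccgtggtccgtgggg
Cst7: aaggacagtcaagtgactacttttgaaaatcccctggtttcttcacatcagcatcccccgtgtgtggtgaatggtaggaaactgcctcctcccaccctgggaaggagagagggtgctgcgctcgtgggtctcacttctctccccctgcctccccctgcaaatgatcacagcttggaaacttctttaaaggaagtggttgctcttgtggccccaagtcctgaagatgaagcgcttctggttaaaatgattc

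The STAT6 letters stood at -127 to -118 from the start in *Itgax*, at -131 to -122 in *Clec7a*, and at -238 to -229 and -225 to -216 in *Lgals3*. *Cst7* held none of the 4 motifs in its window. None of the windows of *Spp1*, *Gpnmb*, *Cd9* and *Axl* held the STAT6 letters either. The search covered all 250 bases of each window, exons included, and the *Cd9* window lies wholly within annotated exons. Among all 32851 upstream windows of the same length, 5.9% held them. An AP-1 match lay at -56 to -50 in *Itgax*, against 6.7% of all windows, and the PU.1 core lay in the windows of *Clec7a*, *Spp1* and *Axl*, against 23.3% of all windows. The E-box was in no window of the 8 members and in 6.0% of all windows. A second RefSeq start of *Clec7a* lies 6 bases further upstream and its window holds the same STAT6 and PU.1 matches. The *Lgals3* window lies inside the longer gene of the GENCODE annotation. Such matches describe letters in the reference sequence, and binding was not measured.

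*Itgax* (ENSMUSG00000030789, GRCm38 chr7:128129547-128150657) encodes CD11c, an integrin alpha chain that pairs with ITGB2. Untreated WT libraries were at 1.26, 3.77 and 0 TPM, and the same cultures after IL-4 at 42.0, 54.6 and 34.1 TPM, in the order T13, T33, T43. In KI, T15, T22 and T32 went from 1.35, 2.18 and 2.61 TPM to 12.6, 27.0 and 31.1 TPM. The lowest treated library therefore lay above the highest untreated one. On the log2(TPM + 1) scale, which understates changes near 0, the difference was 3.63 (SE 0.38, adjusted p = 0.00056, limma F-test). Every KI library with IL-4 was below every WT library with IL-4, a separation whose share over all tested genes was not counted. The response was 4.31 in WT and 2.94 in KI (SE 0.54 each), and the test of that difference in response, -1.36 (SE 0.77), did not pass (unadjusted p = 0.0968, adjusted p = 1.00, limma). With a pseudocount of 0.1 it was -2.32 (SE 1.41, adjusted p = 1.00, limma).

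*Clec7a* (ENSMUSG00000079293, GRCm38 chr6:129461591-129472779), which encodes dectin-1, the receptor for fungal beta-glucan that signals through SYK, lay within a narrow range in untreated WT microglia, at 345, 354 and 338 TPM. After IL-4 the same cultures were at 1857, 1004 and 1039 TPM. The KI cultures T15, T22 and T32 had 141, 297 and 264 TPM untreated and 653, 1292 and 1032 TPM after IL-4. Treated and untreated libraries did not overlap. The difference was 1.97 (SE 0.22, adjusted p = 0.0009, limma F-test), with responses of 1.85 in WT and 2.09 in KI (SE 0.31 each). Without the filter on low values the same difference had an adjusted p of 0.0881 in limma, because 48623 genes then entered the fit and the adjustment. All untreated KI libraries were below the untreated WT libraries, but treated ones overlapped, and genotype did not pass (-0.51, SE 0.22, adjusted p = 0.400, limma F-test). Without T13 and T15 the genotype difference was -0.063 (adjusted p = 0.581, limma F-test).

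*Lgals3* (ENSMUSG00000050335, GRCm38 chr14:47367751-47386160) encodes galectin-3, a lectin that binds beta-galactosides. Its WT values, in the order T13, T33, T43, were 837, 2968 and 2437 TPM untreated and 3096, 9123 and 6588 TPM after IL-4. KI cultures T15, T22 and T32 had 1130, 2629 and 2772 TPM untreated and 3020, 5662 and 9389 TPM after IL-4. All treated libraries exceeded all untreated ones, although the treated T13 and T15 libraries were close to the untreated libraries of other cultures. *Lgals3* was higher by 1.54, with responses of individual cultures between 1.11 and 1.89. Untreated levels themselves spanned 837 to 2968 TPM between cultures, and the F-test without cultures gave an adjusted p of 0.228 (SE 0.38, limma). With the culture as a replicate block it was 5.7e-06 (SE 0.09, limma), where 1.79% of all tested genes rose. With T13 and T15 left out, a setting chosen after seeing the data, *Lgals3* passed also without the block (1.48, adjusted p = 0.00212, limma), and with any single culture left out it did not (adjusted p from 0.118 to 0.698, limma).

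*Cst7* (ENSMUSG00000068129, GRCm38 chr2:150570415-150578944) encodes cystatin F, an inhibitor of lysosomal cysteine proteases such as cathepsin C. Its responses were 0.90 to 2.09 in WT and 1.19 to 3.59 in KI cultures, with a mean difference of 1.98. The F-test without cultures gave an adjusted p of 0.189 (SE 0.49, limma), the one with the culture block 0.00151 (SE 0.24, limma). Without the block it passed when KI culture T22 was left out (2.32, adjusted p = 0.0139) and in none of the fits without another culture (adjusted p from 0.219 to 0.589, limma).

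**Figure D2:**
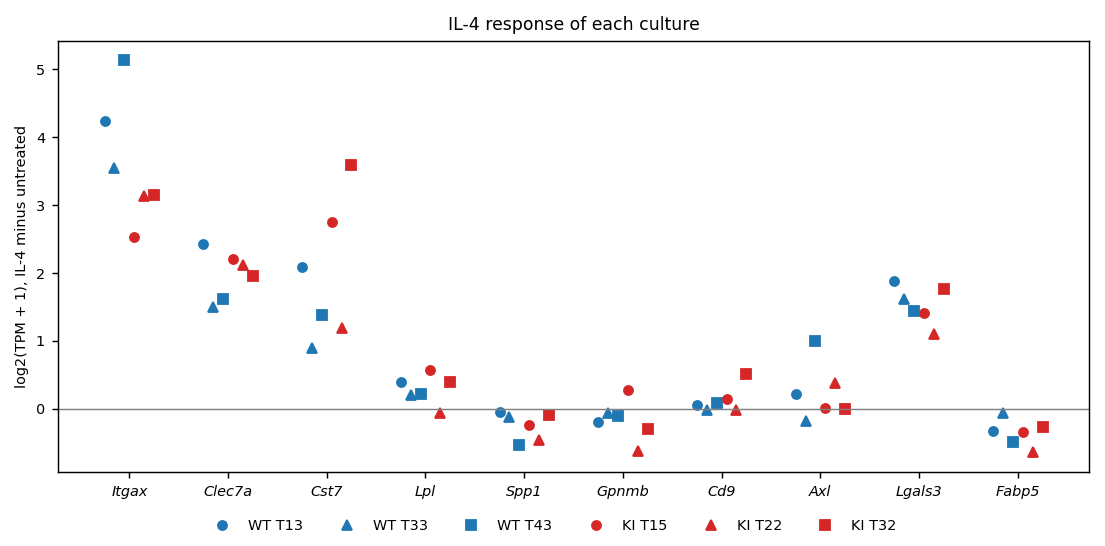
IL-4 response, log2(TPM + 1) of the treated minus the untreated library, for each of the 6 cultures (blue WT, red KI) and 10 genes; the grey line marks no difference. All 6 points of *Itgax*, *Clec7a*, *Cst7* and *Lgals3* lie above 0, all 6 of *Spp1* and *Fabp5* slightly below 0, and those of the other 4 genes on both sides.

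The other 6 members did not pass for IL-4 with or without the block. *Spp1* and *Fabp5* were lower after IL-4 in all 6 cultures, 2 of 10 members against 2.51% of all tested genes, but by small amounts, -0.25 (SE 0.21, adjusted p = 0.994) and -0.35 (SE 0.21, adjusted p = 0.953, limma F-test). With the culture block their adjusted p-values were 0.395 and 0.129 (limma). *Lpl* was higher in 5 of 6 cultures (0.29, adjusted p = 0.944), *Gpnmb* lower in 5 of 6 (-0.17, adjusted p = 1.00), and *Cd9* (0.13, adjusted p = 0.988) and *Axl* (0.24, adjusted p = 0.993, limma F-test) were higher in 4 of 6.

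Beside these members, markers of other cells were followed. The sum of 10 microglial markers after IL-4 was 1.06 times the untreated mean in WT and 1.21 times in KI. *Itgax* is also a dendritic cell gene. The sum of 5 dendritic markers was at most 2.88 TPM in any library, its mean with IL-4 was 2.52 times the untreated one in WT and 1.27 times in KI, and *Ccr7* and *Cd209a* were listed at 0 in all libraries. *S100a9* and *Ly6g*, markers of neutrophils, were listed at 0 throughout as well. The sum of 6 markers of border macrophages was between 41.0 and 198 TPM untreated and between 81.1 and 401 TPM after IL-4. It fell in T13 (154 to 113 TPM) and rose in the other cultures. Most of it was *Pf4* (37.2 to 187 TPM untreated, 60.2 to 349 TPM with IL-4) and, with IL-4, *Mrc1* (0.779 to 4.33 and 15.1 to 63.2 TPM). Means of *F13a1* fell with IL-4 (5.50 to 2.00 TPM in WT, 4.56 to 0.471 TPM in KI), and *Lyve1* was at 0 in all libraries. The sum of 5 endothelial markers went from at most 29.1 TPM to at least 61.0 TPM with IL-4. Most of that sum was *Flt1* (15.3 to 25.0 TPM untreated, 54.7 to 132 TPM with IL-4), while *Cldn5* was at 0 in all libraries, *Cdh5* at most 0.334 TPM and *Kdr* at most 1.23 TPM. The part of these sums in the results was not tested.

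The genes whose pattern over the 12 libraries was most like that of *Itgax* were *Egr2*, an IL-4-responsive transcription factor, and *Atp6v0d2*, a subunit of the vacuolar ATPase. Measured as the root mean square difference between log2 profiles centred on their means, they lay 0.59 and 0.75 from it, where *Itgax* itself varied by 1.93 about its mean. Group means of *Egr2* went from 7.73 to 74.8 TPM in WT and from 11.9 to 65.6 TPM in KI. Nearest to *Clec7a* were *Smap2* (0.27) and *Rnf19b* (0.36), with *Clec7a* varying by 1.09. Those of *Smap2* went from 37.9 to 131 TPM in WT and from 30.0 to 98.7 TPM in KI.

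The second comparison was KI against WT. No member passed the F-test for genotype, whereas 1.29% of all tested genes were higher and 0.357% lower in KI. These were 145 and 40 genes, against 84 and 57 on quantile-normalized values and 130 and 62 with median-ratio scaling. This F-test ignored that libraries share cultures, and with the culture as a random block the counts were 56 and 21. Of the 10 members, 6 were lower and 4 higher in KI on average, with a median log2 difference of -0.14 against 0.13 over all tested genes. *Cst7* had the largest difference and came closest to the threshold. It was the 1 member without overlap between genotypes in both treatments, lower in KI, as were 1.23% of all tested genes. No member was higher in that way, as were 3.7% of them. The share of all tested genes without overlap in 1 treatment alone was not counted.

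Untreated, *Cst7* measured 269, 260 and 199 TPM in WT (T13, T33, T43) against 27.3, 131 and 8.36 TPM in KI (T15, T22, T32). After IL-4 it was at 1152, 486 and 520 TPM in WT and at 190, 299 and 112 TPM in KI. Each of the 6 KI values was thus below the lowest WT value of the same treatment, with T22 closest to WT. WT means were 4.37-fold higher untreated and 3.59-fold higher after IL-4. The log2 difference was -2.36 (SE 0.49, adjusted p = 0.0508, limma F-test), and it was 0.0752 with the culture as a random block. Testing the average difference alone, with 1 coefficient, gave an adjusted p of 0.0170 (limma), and leaving out T22 in the F-test gave 0.00793 (difference -3.03). Leaving out any other culture gave adjusted p-values from 0.101 to 0.223 (limma). Without T13 and T15 the F-test gave -2.08 (adjusted p = 0.227, limma). The response to IL-4 was 1.46 in WT and 2.51 in KI (SE 0.69 each), and the difference between them did not pass (1.05, SE 0.97, adjusted p = 1.00, limma).

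*Lpl* (ENSMUSG00000015568, GRCm38 chr8:68880491-68907448) encodes lipoprotein lipase, which releases fatty acids from triglyceride-rich lipoproteins. Untreated libraries held 1812, 2616 and 2091 TPM in WT and 954, 1824 and 1469 TPM in KI. With IL-4, WT had 2386, 3022 and 2434 TPM and KI 1418, 1744 and 1927 TPM. Treated libraries of the genotypes did not overlap, and untreated ones overlapped by T22 alone, which was just above T13. The difference was -0.64 (SE 0.16), with an adjusted p of 0.117 in the F-test and 0.0388 in the 1-coefficient test of limma. Without T13 and T15 it was -0.54 (adjusted p = 0.104, limma F-test).

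*Fabp5* (ENSMUSG00000027533, GRCm38 chr3:10012548-10016607), which encodes a cytosolic carrier of fatty acids, went the other way. Untreated WT libraries T13, T33 and T43 had 805, 513 and 493 TPM, and untreated KI libraries T15, T22 and T32 had 754, 1603 and 1104 TPM. After IL-4 the values were 644, 493 and 353 TPM in WT and 596, 1027 and 918 TPM in KI. The overlap came from T13 and T15 in both treatments, and all other KI libraries were above all WT libraries. The difference was 0.84 (SE 0.21, adjusted p = 0.119, limma F-test), and 0.0404 in the 1-coefficient test. By this test 1 member was higher and 2 members, *Cst7* and *Lpl*, were lower in KI, where 3.95% and 1.19% of all tested genes were. With T13 and T15 left out together, *Fabp5* also passed the F-test (1.31, adjusted p = 0.00289, limma).

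*Gpnmb* (ENSMUSG00000029816, GRCm38 chr6:49036546-49070929) encodes a transmembrane glycoprotein of lysosome-rich phagocytes. Without IL-4, WT measured 657, 1571 and 1292 TPM and KI 726, 2597 and 3779 TPM. The IL-4-treated libraries had 574, 1507 and 1197 TPM in WT and 884, 1693 and 3070 TPM in KI. T13 and T15 were the lowest of their genotype in both treatments, and the other KI libraries exceeded all WT ones. The spread within KI was larger than the difference (0.76, SE 0.41, adjusted p = 0.578, limma F-test). It was 0.95 (adjusted p = 0.0517) without both T13 and T15, 0.37 (0.917) without T13, 1.34 (0.120) without T15 and 0.30 (0.900) without T32 (limma F-test).

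*Spp1*, *Cd9* and *Axl* overlapped between the genotypes in both treatments. *Spp1* (ENSMUSG00000029304, GRCm38 chr5:104435118-104441050), which encodes the secreted integrin ligand osteopontin, measured 9958, 7161 and 7871 TPM in WT and 13107, 8512 and 6767 TPM in KI without IL-4. After IL-4 it was at 9689, 6588 and 5455 TPM in WT and 11141, 6163 and 6341 TPM in KI. T13 and T15 were the highest of their genotype in both treatments, opposite to their order for *Gpnmb* and *Lgals3*. *Cd9* (ENSMUSG00000030342, GRCm38 chr6:125460266-125494791), a tetraspanin that organises membrane proteins, had the smallest SE of the 10 members (0.12). Its untreated cultures held 1806, 1876 and 1484 TPM in WT and 1457, 1949 and 1349 TPM in KI. With IL-4 its values were 1885, 1855 and 1570 TPM in WT and 1619, 1935 and 1932 TPM in KI. *Axl* (ENSMUSG00000002602, GRCm38 chr7:25757273-25788705), a receptor kinase that recognises phosphatidylserine on dying cells through GAS6, measured 71.4, 78.1 and 51.2 TPM in WT and 60.1, 34.9 and 82.4 TPM in KI without IL-4. IL-4-treated cultures had 83.2, 68.9 and 103 TPM in WT and 60.9, 45.7 and 82.4 TPM in KI. For *Spp1* the genotype difference was 0.12 (adjusted p = 0.950), for *Cd9* -0.04 (adjusted p = 0.909), for *Axl* -0.34 (adjusted p = 0.652), for *Itgax* -0.24 (adjusted p = 0.565) and for *Lgals3* 0.04 (adjusted p = 0.987, limma F-test).

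**Figure D3:**
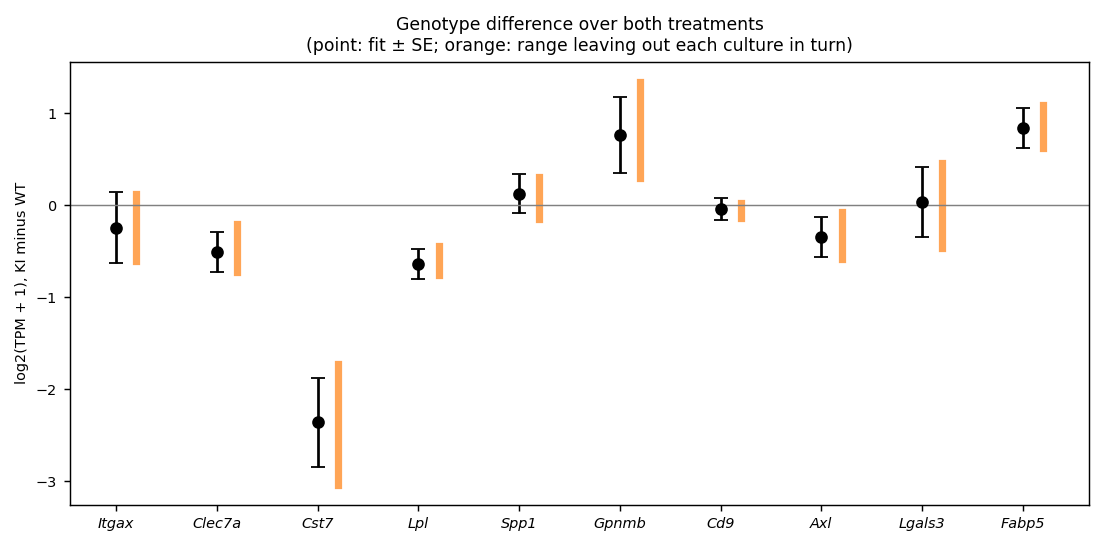
KI minus WT difference of each gene on the log2(TPM + 1) scale over both treatments, as the fitted value ± standard error (black) and as the range of the fits that each leave out 1 of the 6 cultures (orange). *Cst7* (-2.36), *Lpl* (-0.64), *Clec7a* (-0.51) and *Axl* (-0.34) stay below 0 and *Fabp5* (0.84) and *Gpnmb* (0.76) above 0 in all these fits.

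Marker sums of several cell types moved with genotype. The sum of 10 microglial markers was 1.57-fold higher in WT than KI means untreated and 1.39-fold higher after IL-4, where *Cst7* was 4.37-fold and 3.59-fold and *Lpl* 1.53-fold and 1.54-fold higher. Within KI, T15 had the lowest sum (7096 TPM untreated) and T22 the highest (16009 TPM untreated), and *Cst7* was highest in T22 and lowest in T32 in both treatments. The sum of 8 markers of mural cells and fibroblasts was 145 to 559 TPM in WT and 704 to 1317 TPM in KI libraries. Most of it was *Acta2* (72.6 to 233 TPM in WT, 349 to 790 TPM in KI) and *Tagln* (52.3 to 155 and 195 to 573 TPM). Means of *Cspg4* were lower in KI (1.74 against 6.71 TPM untreated, 2.76 against 6.97 TPM with IL-4). Those of *Col1a1*, *Col1a2*, *Dcn* and *Lum* were higher in KI untreated and lower with IL-4, and that of *Pdgfrb* was higher in both. The sum of 8 oligodendrocyte lineage markers was 29.7 to 85.1 TPM in WT and 92.6 to 458 TPM in KI. With T15, the culture richest in astrocyte markers, left out, the genotype difference was -0.45 for *Lpl* (adjusted p = 0.239) and 1.09 for *Fabp5* (adjusted p = 0.0508, limma F-test). The part of these markers in the genotype differences was not tested.

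**Figure D4:**
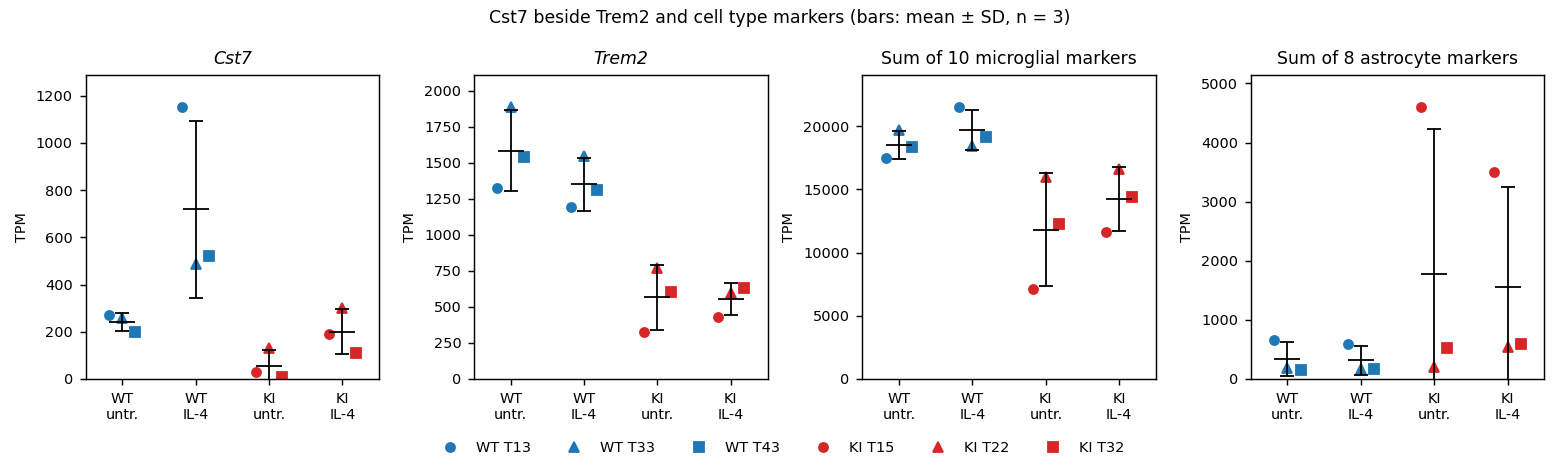
TPM (linear axes from 0) of *Cst7* and *Trem2* and the summed TPM of 10 microglial and 8 astrocyte markers in the 12 libraries; symbols mark cultures and black bars the mean ± SD of 3 libraries, cut at 0. *Cst7*, *Trem2* and the microglial sum are lower in KI (4.37-fold for *Cst7* and 1.57-fold for the microglial sum between untreated means), and KI T15 stands apart in the astrocyte sum.

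The study asked whether the IL-4 response differs in KI. It reported a significant interaction, by analysis of variance of single genes, for a selection from a co-expression cluster that includes *Itgax*. By RT-qPCR it also reported a weaker IL-4 response of a marker gene in KI cultures and in cultures with *Trem2* knocked down by siRNA. The test here is adjusted over all tested genes with 3 cultures per genotype, so it is an unlike measure. None of the 10 members passed the test of the interaction, nor did any of the 11204 tested genes (0%), of which 357 had an unadjusted p under 0.05, and no member did. The difference in response, KI minus WT, was below 0 for 6 members and above 0 for 4. *Spp1*, *Gpnmb* and *Fabp5*, which were lower after IL-4 on average, count below 0 because their fall with IL-4 was larger in KI. *Itgax* (-1.36) and *Cst7* (1.05) had the largest differences in response, in opposite directions. Their SEs were 0.77 and 0.97 without the culture block and 0.63 and 0.49 with it, where the adjusted p was 0.969 for each (limma). For *Itgax* the responses of the WT cultures (3.54 to 5.13) were all above those of the KI cultures (2.54 to 3.15), and for *Cst7* they overlapped. The share of all tested genes with responses separated in this way was not counted, so no result is read from the separation.

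Further genes were taken from 4 lists, of which 2 hold other genes of the disease-associated state, 1 homeostatic genes and 1 partners and relatives of the members. Of 10 further genes of the first stage of that state, *Timp2*, an inhibitor of metalloproteinases, rose with IL-4 (0.83, SE 0.11, adjusted p = 0.003, limma F-test), and none passed for genotype. Of 13 further genes of the second, TREM2-dependent stage, *Igf1*, a growth factor, rose (0.90, adjusted p = 0.0482) and *Serpine2*, a protease inhibitor, fell with IL-4 (-1.31, adjusted p = 0.0337), while *Csf1*, the ligand of CSF1R, was higher (1.45, adjusted p = 0.0369, limma F-test) and *Trem2* lower in KI. List medians for IL-4 were 0.06 and 0.18 and for genotype -0.22 and -0.17, against 0.04 and 0.13 over all tested genes.

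Of 12 tested homeostatic genes, *Cx3cr1*, the fractalkine receptor, fell with IL-4 (-1.16, adjusted p = 0.042), from 289 to 731 TPM in untreated to 126 to 382 TPM in treated libraries. *Csf1r* (-0.83, adjusted p = 0.0408) and *Fcrls* (-0.66, adjusted p = 0.0456, limma F-test) were lower in KI. The median genotype difference of the homeostatic list was -0.50, below that of the 10 members (-0.14). Among 35 tested partners and relatives of the members, *Apoc2*, the cofactor of lipoprotein lipase, fell with IL-4 (-1.24, adjusted p = 0.0017), and *Itgam*, another alpha chain that pairs with ITGB2, was lower in KI (-0.85, adjusted p = 0.0408, limma F-test). No other gene of these lists passed either F-test. Leaving out each of the 6 cultures in turn, *Apoc2* passed in 6 fits, *Timp2* in 5 (not without T43), *Serpine2* in 2 and *Igf1* and *Cx3cr1* in 1 each. For genotype, *Trem2* passed in 4 of these fits (not without T33 or T43), *Csf1* in 1, and *Csf1r*, *Fcrls* and *Itgam* in none, with adjusted p-values of up to 0.306 (limma).

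The culture block moved these counts. For IL-4, the genes that rose and fell with the block were 2 and 2 of the first stage, 5 and 1 of the second stage, 1 and 1 of the homeostatic list and 5 and 2 of the partners, where 1.79% of all tested genes rose and 0.348% fell. Those partners, named here after their values were seen, were *Itgb2*, *Ctsc*, *Ctsh*, *Lgals3bp* and *Pparg* upwards and *Clec4n* and *Apoc2* downwards. *Itgb2*, the beta chain that CD11c needs, was higher by 0.56 (block adjusted p = 0.0077), and *Ctsc*, cathepsin C, by 0.90 (block adjusted p = 0.0044, limma). For genotype, *Csf1* (0.0629), *Csf1r* (0.0648), *Fcrls* (0.0778) and *Itgam* (0.0766) had these limma adjusted p-values with the block and no longer passed, whereas *Trem2* did (0.0116).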

How the data were processed

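Polyadenylated RNA of 6 microglial cultures, each untreated and IL-4-treated (12 libraries), was sequenced. Per the study's methods, Trim Galore trimmed the reads, Salmon with the ENSEMBL GRCm38 transcripts gave abundances, and the authors used tximport for gene values; versions are not given in the sources used here. The deposited values are TPM, which keep no counts, so depth and counting error are unknown and precision rests on the spread between libraries. The counts that the authors tested with DESeq2 were not analysed here. Identifiers were named with GENCODE M21. Genes with a mean log2(TPM + 1) above 1.5 (11204) were fitted with limma 3.58.1 in R 4.3.3 (variance trend, 12 libraries; genotype, IL-4 and interaction). F-tests took a factor with its interaction, with Benjamini-Hochberg adjustment over all genes tested and a threshold of 0.05. The fit was also run on simulated libraries drawn independently, which cannot show how it behaves when libraries share a culture. Whether libraries came from separate litters is not labelled. The main fit took the 12 libraries as independent, although each culture gave an untreated and a treated one. Its p-values, those for genotype included, therefore mix the spread between cultures with that between libraries of a culture. With the culture block, genotype values allow for the pairing, and IL-4 and interaction values rest on the spread within cultures.

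Libraries sharing a number in their names were treated as 1 culture, which the names imply and do not state. Deviations from group means of same-numbered libraries correlated at 0.079 to 0.378, and those of different numbers at -0.297 to 0.188; untreated T22 correlated more with treated T32 (0.188) than with treated T22 (0.121), so values with the culture block rest on the names. Groups came from GEO's labels. Members and lists were chosen with earlier results of these data known. All 10 members are named, with *Trem2*, at most 4 genes per list by smallest p among those past the threshold, and the 2 nearest genes in pattern to each member past it; 1 further gene of that rule is not reported here. Alternatives were a pseudocount of 0.1, no filter, a filter above 3, quantile and median-ratio scaling, no variance trend, a 1-coefficient test, the culture block and leaving out cultures. Upstream windows came from RefSeq (GRCm38.p6). Summaries and plots used Python 3.11.15, numpy 2.4.6, pandas 2.3.3 and matplotlib 3.10.9.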

Additional observations from a re-analysis of the deposited data

How the results depend on the processing

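The rise of *Itgax* passed under every alternative run (3.42 to 4.57 on the log2 scale) and that of *Clec7a* in all but the fit with no filter. The number of members that rose with IL-4 was 1 with no filter, 4 with the culture as a replicate block, and 2 to 3 when each culture was left out in turn; the block changed no member's call for genotype or the interaction. The number lower in KI was 1 with a filter above 3, 1 with median-ratio scaling (*Cst7* in both), 2 with the 1-coefficient test and 0 to 1 leaving out each culture. The number higher in KI was 1 with the 1-coefficient test and 1 without T13 and T15, a setting chosen after seeing the data. The cause of these changes was not tested. With all genes, the IL-4 fit called 100 genes, and from 46 without T43 to 144 without T15. The genotype fit called 185 genes, and from 3 without T33 to 192 without T13. The median genotype difference of all genes, 0.13, became -0.078 on quantile-normalized values and 0.018 with median-ratio scaling.

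No call reversed; the differences that changed sign were all short of the threshold. For genotype, *Itgax* was 0.20 with a pseudocount of 0.1, *Lgals3* -0.082 with median-ratio scaling, and without T13 and T15 *Itgax* was 0.036, *Cd9* 0.070 and *Lgals3* -0.042. In response by genotype, *Spp1* was 0.15 and *Lgals3* 0.0057 after quantile normalization, and without T13 and T15 *Spp1* was 0.045 and *Lpl* -0.050. Leaving out each culture, genotype differences ran from -0.61 to 0.12 for *Itgax*, -0.15 to 0.31 for *Spp1*, -0.14 to 0.027 for *Cd9* and -0.46 to 0.46 for *Lgals3*, and differences in response from -0.11 to 0.21 for *Lpl*, -0.18 to 0.065 for *Spp1*, -0.34 to 0.11 for *Gpnmb* and -0.48 to 0.11 for *Axl*. With 3 cultures per genotype, a single culture can move a genotype call, and the precision of *Itgax* near 0 TPM cannot be given because depth is unknown.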
